A study of Homo sapiens with 6 samples.

Results

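The genes of the BCL2 family that decide between survival and death at the mitochondrion were examined in RD cells after knockdown of TAK1, the kinase encoded by MAP3K7. The set comprised BCL2, BCL2L1, MCL1, BAX, BAK1, BBC3, BID, PMAIP1, BCL2L11 and BIK, chosen by symbol from the count table. All 10 symbols were found among its 58735 rows, and all 10 were among the 15935 genes with enough counts to be tested. RD is an established line of embryonal rhabdomyosarcoma, a childhood tumor with features of skeletal muscle. The cells received lentivirus carrying either a scrambled shRNA (n = 3) or a TAK1 shRNA (n = 3), so both groups share the transduction and differ in the hairpin. Poly(A)-enriched RNA was sequenced in bulk. A single TAK1 hairpin was used in this experiment, so changes due to loss of TAK1 and changes due to the hairpin itself cannot be told apart.

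BCL2 family proteins control the permeability of the outer mitochondrial membrane. Survival proteins such as BCL-2, BCL-XL and MCL-1 hold the pore-forming effectors BAX and BAK in check. BH3-only proteins, among them PUMA, BID, NOXA, BIM and BIK, bind the survival proteins or activate the effectors, and once pores form, cytochrome c leaves the mitochondrion and caspases are activated. NOXA binds MCL-1 selectively, whereas BIM binds all of the main survival proteins. TAK1 acts downstream of cytokine receptors and activates NF-kB and stress kinases, pathways known to control several genes of this family.

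Total counts were 29125436, 31886885 and 31334733 in the scrambled shRNA libraries and 28839898, 34469323 and 32710522 in the TAK1 shRNA libraries, in the order of replicates 1, 2 and 3. Expression is given below in that order as CPM, counts scaled to a normalized library size of 1000000. No 2 libraries within a group agreed within sampling noise (chi-square per degree of freedom, 2.88 to 8.74). The labels do not say that replicates came from separate cultures, so p-values measure the spread between these samples, which may be technical. The first principal component, with 45.5% of the variance, separated the groups.

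MAP3K7 was measured first, since it checks the labels. Its mRNA stood at 77.9, 76.5 and 77.6 CPM with scrambled shRNA and at 30.5, 33.6 and 29.9 CPM with TAK1 shRNA. All libraries of the knockdown lay below all controls, and the log2 fold change was -1.30 ± 0.062 (SE, n = 3 per group; edgeR adjusted p = 4.45e-14). The remaining level was 0.406 of the control.

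The muscle identity of RD cells was visible in both groups. Of 14 skeletal muscle markers, 12 had enough counts to be tested, and CHRNA1, a subunit of the acetylcholine receptor, was the most abundant at a mean of 811 CPM. MYF5 had 0 counts in all libraries, and MYF6 had at most 1 count in any library. ACTA1 was also low, at a mean of 1.62 CPM with scrambled shRNA and 1.17 CPM with TAK1 shRNA (log2 fold change -0.47 ± 0.27, adjusted p = 0.191). The summed level of the list was 3450.1, 3449.9 and 3460.3 CPM with scrambled shRNA and 3741, 3679.6 and 3574 CPM with TAK1 shRNA. In this list 5 genes were called higher and 1 lower by the rule given below, beside 11.8% and 11.3% of all genes tested. The myogenic factor MYOD1 rose by a log2 fold change of 0.37 ± 0.047 (adjusted p = 8.15e-07), MYOG by 0.27 ± 0.050 (adjusted p = 0.000153), the fusion protein gene MYMK by 0.98 ± 0.11 (adjusted p = 1.43e-07), ACTC1 by 0.40 ± 0.042 (adjusted p = 5.38e-08) and MYH8 by 0.50 ± 0.17 (adjusted p = 0.0281). The calls of MYOG and MYH8 did not hold in every alternative. MYOG dropped under the fold threshold without scrambled shRNA replicate 1 or TAK1 shRNA replicate 1 (0.24 in each case). MYH8 lost its call with DESeq2 on all 6 libraries (0.49, adjusted p = 0.0785), and with edgeR had adjusted p from 0.0564 to 0.0990 without scrambled shRNA replicate 2 or 3 or without TAK1 shRNA replicate 2 or 3, within a range of 0.0164 to 0.0990 over 14 alternatives. CHRNA1 changed by -0.40 ± 0.039 (adjusted p = 1.91e-08). Markers of other cells were low. The most abundant epithelial marker was EPCAM at a mean of 0.234 CPM, with CDH1, KRT14 and KRT19 at 0. Among blood markers CD14 led at 0.260 CPM, with CD3E and HBB at 0. The endothelial TEK stood at 2.65 CPM with CDH5 and KDR at 0, and that list summed to 2.99, 3.65 and 2.98 CPM with scrambled shRNA and 1.78, 2.75 and 2.30 CPM with TAK1 shRNA. The most abundant neural marker, SYP, was at 4.71 CPM with OLIG2 at 0. The share of counts on mitochondrially encoded genes was 0.991%, 1.08% and 1.13% with scrambled shRNA and 1.24%, 1.22% and 1.33% with TAK1 shRNA, without overlap. The part of these shifts in the results below was not tested.

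A gene was called when the adjusted p was under 0.05 and the log2 fold change was at least 0.25 in size. Among the 10 members, 2 were called higher with TAK1 shRNA (BCL2L11 and BIK) and 1 was called lower (PMAIP1). The filter on low counts asked for 0.316 CPM of the raw total, worth 10 counts at the median depth, in 3 libraries. In 9 members all 6 libraries reached it, but BIK did so in 0 libraries with scrambled shRNA and 3 with TAK1 shRNA. Having passed only through the group where it is high, BIK had to differ, and its call is no support for a rise in the family. Over all genes tested, 11.8% were called higher and 11.3% lower, so counts this small do not set the family apart. The same shares stand beside the counts of called genes in each list below. The remaining 7 members were not called, and in 2 of them, MCL1 and BAX, the adjusted p passed while the fold stayed under the threshold. All TAK1 shRNA libraries lay above all scrambled shRNA libraries for 2 members, BCL2L11 and BIK, against 21.6% of all genes. They lay below them for 4 members, against 22.2% of all genes. For BIK this separation follows from the way it passed the filter, so it is no support either. The median log2 fold change of the members was -0.11, beside 0.02 for all genes tested. In bulk RNA, fewer cells that express a gene and less RNA per cell cannot be told apart.

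**Figure D1:**
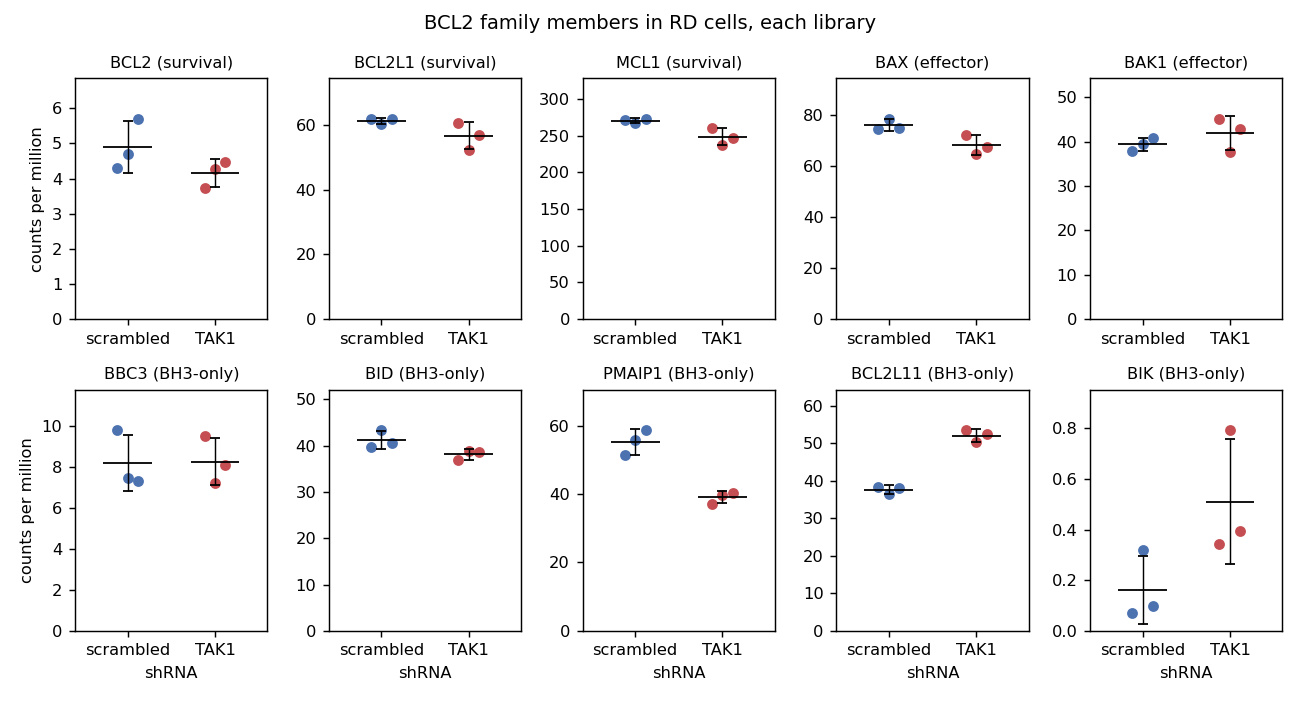
Expression of the 10 members in each library in CPM, with scrambled shRNA in blue and TAK1 shRNA in red. Points are libraries, horizontal lines are means and bars are SD (n = 3); each vertical axis starts at 0 and has its own range. PMAIP1 and BCL2L11 separate the groups clearly, at means of 55.2 against 39.0 CPM and 37.7 against 52.1 CPM, while BBC3 does not.

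The called BH3-only genes with ample counts moved in opposite directions. PMAIP1 encodes NOXA, and BCL2L11 encodes BIM. The bases before their annotated start sites are shown since these 2 genes carry the largest well-counted changes among the members. They are from RefSeq on GRCh38.p14, both on the plus strand, at chr18:59899746-59899995 for PMAIP1 and chr2:111120664-111120913 for BCL2L11, and neither window overlaps an annotated exon. The BCL2L11 window lies within the span of the gene, since some of its annotated transcripts start upstream. Each window is 250 bases long and written 5′ to 3′. Capitals mark the forkhead (FOXO) motif GTAAACA and the half-site of the cAMP response element, TGACG, on either strand.
PMAIP1: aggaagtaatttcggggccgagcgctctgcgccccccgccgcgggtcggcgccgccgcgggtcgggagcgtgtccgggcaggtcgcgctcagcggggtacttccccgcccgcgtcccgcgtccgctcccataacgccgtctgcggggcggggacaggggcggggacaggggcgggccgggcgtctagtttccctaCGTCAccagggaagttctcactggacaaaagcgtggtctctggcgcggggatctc
BCL2L11: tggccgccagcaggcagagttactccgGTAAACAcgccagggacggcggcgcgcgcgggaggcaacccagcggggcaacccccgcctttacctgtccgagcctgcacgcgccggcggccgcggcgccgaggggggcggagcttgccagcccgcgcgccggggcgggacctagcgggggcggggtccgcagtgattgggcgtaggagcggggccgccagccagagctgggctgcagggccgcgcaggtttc

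Of the 10 members, 8 had at least 1 promoter in the RefSeq table. Motifs were picked after the expression values were seen, and the half-site also after the sequences had been read, and both strands were searched. In the BCL2L11 window GTAAACA lay 223 to 217 bases before the start, a motif found in 2.98% of all 35116 promoter windows of this length, and neither TGACG nor the full element TGACGTCA, which holds it, was found. The PMAIP1 window held TGACG on the minus strand, 55 to 51 bases before the start, as did 21.2% of all windows, and no GTAAACA. The full element occurred in 1.65% of windows. TGACG also lay in windows of BCL2, BCL2L1 and BAX, which were not called. It lay as well in a window of BMF, a BH3-only gene outside the members that rose, 57 to 53 bases before the start. GTAAACA was found in no other searched window of the members or of BMF. The GC-box GGGGCGGGG (15.1% of windows) appeared once in BCL2L11, 76 to 68 bases before the start, and at 107 to 99 and 95 to 87 bases in PMAIP1. A CCAAT box (32.0% of windows) was present on the minus strand of BCL2L11, 58 to 54 bases before the start. Both windows held the loose NF-kB pattern of GGG and CC with any 5 bases between, which 54.4% of windows hold. In neither were CAGCTG (14.0% of windows), TGANTCA (6.57%), TATAAA (10.7%) or TTTCCCGC (1.39%) found. A match describes letters and not a bound site.

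PMAIP1 (ENSG00000141682.12; chromosome 18, 59899996 to 59904305) stood at 51.3, 55.6 and 58.6 CPM with scrambled shRNA and at 37.1, 39.8 and 40.3 CPM with TAK1 shRNA. The highest knockdown library was below the lowest control. Its mRNA was thus at 0.708 of the control level, with a log2 fold change of -0.50 ± 0.065 (95% interval -0.63 to -0.36; edgeR adjusted p = 1.37e-06).

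BCL2L11 (ENSG00000153094.25; chromosome 2, 111119378 to 111168444) stood at 38.5, 36.4 and 38.2 CPM with scrambled shRNA and at 53.5, 50.3 and 52.4 CPM with TAK1 shRNA. Here every knockdown library was above every control. The rise was 1.38-fold, or 0.47 ± 0.062 on the log2 scale (95% interval 0.34 to 0.59; adjusted p = 1.67e-06). An antisense gene, MIR4435-2HG, covers 727 of its annotated exon bases, 10.8% of them, and its own counts, at a mean of 43.6 CPM, changed by -0.40 ± 0.063 (adjusted p = 1.76e-05). The use of strand in counting is not given in the sources used here, so reads in that overlap could belong to either gene.

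BIK (ENSG00000100290.3; chromosome 22, 43110750 to 43129712), a BH3-only protein of the endoplasmic reticulum, was barely detected. It had 2, 10 and 3 counts with scrambled shRNA and 10, 28 and 13 counts with TAK1 shRNA, or 0.0703, 0.318 and 0.0973 CPM against 0.342, 0.793 and 0.394 CPM. A floor of 3 counts corresponds to between 0.0849 and 0.106 CPM, and 2 of the control libraries did not exceed it. The groups were parted only by the narrow gap between scrambled shRNA replicate 2 and TAK1 shRNA replicate 1. From the summed counts, 15 against 51, the ratio was 3.16 with an exact 95% interval of 1.75 to 6.06, which covers counting error only. The fit gave 1.63 ± 0.59 (adjusted p = 0.0345). The call was lost without scrambled shRNA replicate 1 (1.29, adjusted p = 0.154), without scrambled shRNA replicate 3 (1.36, adjusted p = 0.153) and without TAK1 shRNA replicate 2 (1.14, adjusted p = 0.224). Without scrambled shRNA replicate 2, the highest control, the log2 fold change was instead 2.56 (adjusted p = 0.0144). With no filter on low counts it was 1.62 (adjusted p = 0.0494), in a range of adjusted p from 0.0144 to 0.224 over 12 alternatives.

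The remaining BH3-only genes were not called. BID (ENSG00000015475.19), which caspase-8 cleaves to link death receptors to mitochondria, stood at 39.6, 43.3 and 40.6 CPM with scrambled shRNA and 36.8, 38.9 and 38.7 CPM with TAK1 shRNA. Although the groups did not overlap, the log2 fold change was -0.11 ± 0.065 (adjusted p = 0.194). BBC3 (ENSG00000105327.18), which encodes PUMA, was at 9.81, 7.49 and 7.33 CPM against 9.51, 7.22 and 8.09 CPM. These ranges overlap, and the 95% interval of its log2 fold change ran from -0.26 to 0.28 (adjusted p = 0.969).

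Among the survival genes no call was made. MCL1 (ENSG00000143384.14; chromosome 1), whose protein turns over quickly, stood at 271, 267 and 273 CPM with scrambled shRNA and 261, 238 and 247 CPM with TAK1 shRNA. The groups did not overlap, and the log2 fold change of -0.12 ± 0.046 passed the adjusted p (0.0405) but not the fold threshold. The adjusted p was under 0.05 in 7 of 14 alternatives and ranged from 0.00439 to 0.197. BCL2L1 (ENSG00000171552.14; chromosome 20), the BCL-XL gene, was at 61.8, 60.4 and 62.0 CPM against 60.8, 52.4 and 57.0 CPM. TAK1 shRNA replicate 1 lay within the control range, and the log2 fold change was -0.11 ± 0.061 (adjusted p = 0.156). Counts per gene cannot separate its long form, which protects cells, from its short form, which promotes death. An antisense gene, ABALON, covers 41.3% of its exon bases but was itself at a mean of 2.08 CPM.

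BCL2 (ENSG00000171791.14; chromosome 18), the founding survival gene, was weakly expressed at 4.29, 4.70 and 5.71 CPM with scrambled shRNA and 3.73, 4.27 and 4.48 CPM with TAK1 shRNA. The ranges overlap. Its log2 fold change was -0.23 ± 0.16 (95% interval -0.56 to 0.09; adjusted p = 0.271), an interval that reaches past the fold threshold on the lower side.

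Of the effectors, BAX (ENSG00000087088.21; chromosome 19) stood at 74.4, 78.6 and 74.7 CPM with scrambled shRNA and at 72.3, 64.5 and 67.2 CPM with TAK1 shRNA. The groups did not overlap, and the log2 fold change of -0.16 ± 0.056 passed the adjusted p (0.0326) without reaching the fold threshold. Its adjusted p was under 0.05 in 7 of 14 alternatives, between 0.00505 and 0.171. BAK1 (ENSG00000030110.14; chromosome 6) was at 37.9, 39.5 and 40.9 CPM against 45.2, 37.7 and 42.8 CPM. The knockdown libraries spanned the control range, and the log2 fold change was 0.09 ± 0.070 (adjusted p = 0.385).

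BCL2 proteins outside the 10 members were described as a separate list of 7 genes, of which 5 were tested, 2 rose and 1 fell, with a median log2 fold change of 0.23. BMF, a BH3-only gene whose protein is held at the cytoskeleton, was at 23.5, 23.0 and 25.2 CPM with scrambled shRNA and at 40.8, 40.4 and 42.2 CPM with TAK1 shRNA. All knockdown libraries were above all controls, with a log2 fold change of 0.78 ± 0.069 (adjusted p = 2.19e-09). BOK, a relative of BAX and BAK, rose from a mean of 52.9 to 67.0 CPM (0.34 ± 0.074, adjusted p = 0.000873), with TAK1 shRNA replicate 1 highest at 78.3 CPM. Without that library its log2 fold change was 0.21 (adjusted p = 0.00554), under the fold threshold, with adjusted p between 1.76e-06 and 0.00757 over 14 alternatives. BCL2L2, the survival gene for BCL-W, was at 36.3, 37.5 and 35.4 CPM against 29.2, 30.5 and 26.7 CPM and fell (-0.34 ± 0.070, adjusted p = 0.000517). BAD had a log2 fold change of 0.23 (adjusted p = 0.0522), and HRK, at a mean of 0.343 CPM in the control, had -0.71 ± 0.59 (adjusted p = 0.394). BCL2A1 and BCL2L10 had 0 counts in all 6 libraries.

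**Figure D2:**
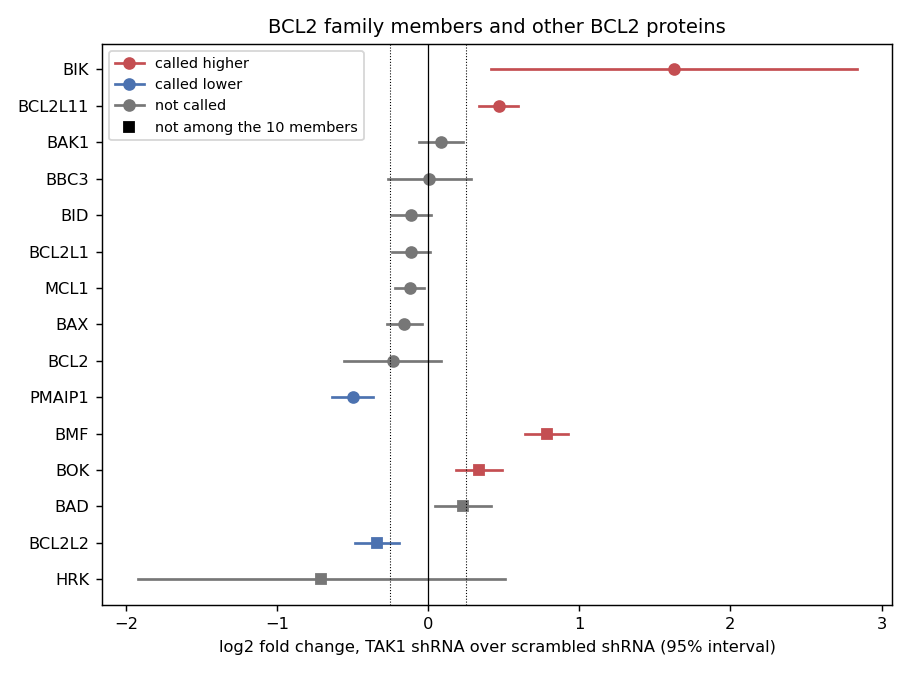
Log2 fold change of TAK1 shRNA over scrambled shRNA for the 10 members (circles) and the 5 tested BCL2 proteins outside that set (squares), with 95% intervals from edgeR (n = 3 per group); dotted lines mark the fold threshold of 0.25 in either direction. Red genes were called higher and blue genes lower. BIK has the widest interval among the called genes, from 0.42 to 2.83.

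Levels were compared between genes per kilobase of annotated exon, in CPM per kilobase with scrambled shRNA (mean ± SD, n = 3). MCL1 was highest at 43.5 ± 0.533, followed by BAX at 29.3 ± 0.901 and PMAIP1 at 25.2 ± 1.69. BAK1 at 17.8 ± 0.676, BCL2L1 at 14.6 ± 0.210, BID at 9.32 ± 0.434 and BCL2L11 at 5.59 ± 0.168 came next. BBC3 followed at 2.58 ± 0.436, BCL2 at 0.388 ± 0.0579 and BIK at 0.170 ± 0.143. No neighbors in this order overlapped between control libraries, though the BCL2 and BIK libraries almost met, at 0.340 and 0.334. With TAK1 shRNA, PMAIP1 averaged 17.9 ± 0.791 and came after BAK1 at 18.9 ± 1.73, a pair within each other's spread, and BIK at 0.536 ± 0.259 came before BCL2 at 0.330 ± 0.0310. BCL2L11 reached 7.72 ± 0.245 and kept its place after BID at 8.62 ± 0.258. The survival transcripts thus differed widely in level, with MCL1 far above BCL2 in this line. With the longest transcript as the length, BCL2L1 (18.9) came before BAK1 (17.8) and BAX reached 55.9 beside 59.4 for MCL1.

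**Figure D3:**
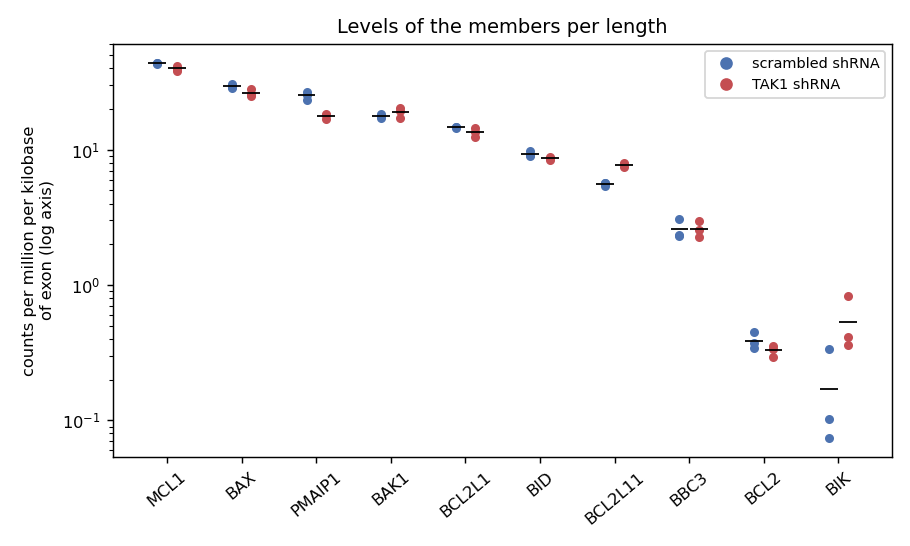
Levels of the 10 members in CPM per kilobase of annotated exon on a log axis, ordered by the mean with scrambled shRNA (blue), beside TAK1 shRNA (red). Points are libraries and short lines are means (n = 3 per group). MCL1 is at the top with 43.5 and BIK at the bottom with 0.170 in the control.

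Ratios of survival to death transcripts within a library do not depend on the scaling between libraries and are given as descriptions on the log2 scale (mean ± SD, n = 3). MCL1 over PMAIP1, the survival gene over the gene for its selective antagonist, was 2.30 ± 0.096 with scrambled shRNA and 2.67 ± 0.13 with TAK1 shRNA. All knockdown libraries, from 2.58 to 2.81, exceeded all controls, from 2.22 to 2.40. This shift mostly restates the fall of PMAIP1 reported above and is not a separate result. BCL2 over BAX was -3.96 ± 0.22 against -4.03 ± 0.21, a difference within the spread. The sum of BCL2, BCL2L1 and MCL1 over the sum of BAX and BAK1 was 1.55 ± 0.050 against 1.49 ± 0.029, and these ranges overlap. A further ratio was added after the values were seen, with BCL2L11 picked for its call, so its shift restates that call. MCL1 over BCL2L11 was 2.84 ± 0.028 against 2.25 ± 0.027.

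Machinery downstream of the mitochondrion was examined next. Among apoptosome and caspase genes, 15 of 16 were tested, 2 rose and 4 fell, and the median log2 fold change was -0.05. CASP2, an initiator caspase, fell from a mean of 76.5 to 62.3 CPM (-0.29 ± 0.054, adjusted p = 0.00014). PARP1, a DNA repair enzyme cleaved by caspases, fell from 606 to 493 CPM (-0.30 ± 0.042, adjusted p = 4e-06). CYCS, which encodes cytochrome c, fell from 307 to 258 CPM (-0.25 ± 0.046, adjusted p = 0.000105). This call was lost to the fold threshold without scrambled shRNA replicate 2 (-0.24), without TAK1 shRNA replicate 1 (-0.22) and in 3 other alternatives. The nucleases DFFB (10.8 to 13.9 CPM; 0.36 ± 0.099, adjusted p = 0.00687) and ENDOG (15.4 to 20.4 CPM; 0.40 ± 0.10, adjusted p = 0.00291) rose.

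Outer membrane partners and distant relatives of BCL2 comprised 12 genes, of which 10 were tested and 2 fell, with a median of -0.09. In this list 0 genes were called higher by edgeR, DESeq2 or limma voom, and 1 was higher at an unadjusted p under 0.05. The channel gene VDAC1 was at 257, 254 and 259 CPM with scrambled shRNA and 159, 151 and 159 CPM with TAK1 shRNA. Every knockdown library was below every control, and the log2 fold change was -0.72 ± 0.045 (adjusted p = 6.45e-12). BCL2L12 fell from 86.4 to 70.1 CPM (-0.30 ± 0.057, adjusted p = 0.000154).

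Extrinsic signals reach the family through death receptors. Of 20 genes in that pathway 15 were tested, and edgeR called 0 higher and 1 lower, with a median of -0.09. DESeq2 and limma voom also called 0 higher, and 1 was higher at an unadjusted p under 0.05. TNFRSF1A, the receptor for TNF that signals through TAK1, was at 148, 137 and 139.6 CPM with scrambled shRNA and 91.3, 87.5 and 86.4 CPM with TAK1 shRNA. The groups were far apart, with a log2 fold change of -0.68 ± 0.050 (adjusted p = 1.2e-10). Of 8 genes on the list of inhibitors of apoptosis, which also holds a regulator of them, 4 were tested. The giant ubiquitin ligase gene BIRC6 fell from 211 to 175 CPM (-0.27 ± 0.056, adjusted p = 0.000537). BIRC6 was under the fold threshold without TAK1 shRNA replicate 1 (-0.24) or replicate 2 (-0.21). Of the 4 tested genes of this list, 0 were called higher by edgeR, DESeq2 or limma voom, 0 rose at an unadjusted p under 0.05, and the median was -0.07.

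Turnover of MCL-1 protein is set in part by ubiquitin ligases. Of 6 genes on a list for this turnover, 5 were matched by symbol in the count table. All 5 were tested, 1 rose and 1 fell, and the median was 0.14. FBXW7, whose ligase marks MCL-1 for degradation, rose from 22.7 to 27.0 CPM (0.25 ± 0.079, adjusted p = 0.0138). That call was lost in 6 of 14 alternatives, among them the fits without scrambled shRNA replicate 2 (0.22, adjusted p = 0.0926), TAK1 shRNA replicate 2 (0.20, adjusted p = 0.0714) and TAK1 shRNA replicate 3 (0.23, adjusted p = 0.0539), in a range from 0.00255 to 0.0926. BTRC fell from 65.6 to 54.3 CPM (-0.27 ± 0.058, adjusted p = 0.00063) and was under the fold threshold without TAK1 shRNA replicate 2 (-0.24).

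**Figure D4:**
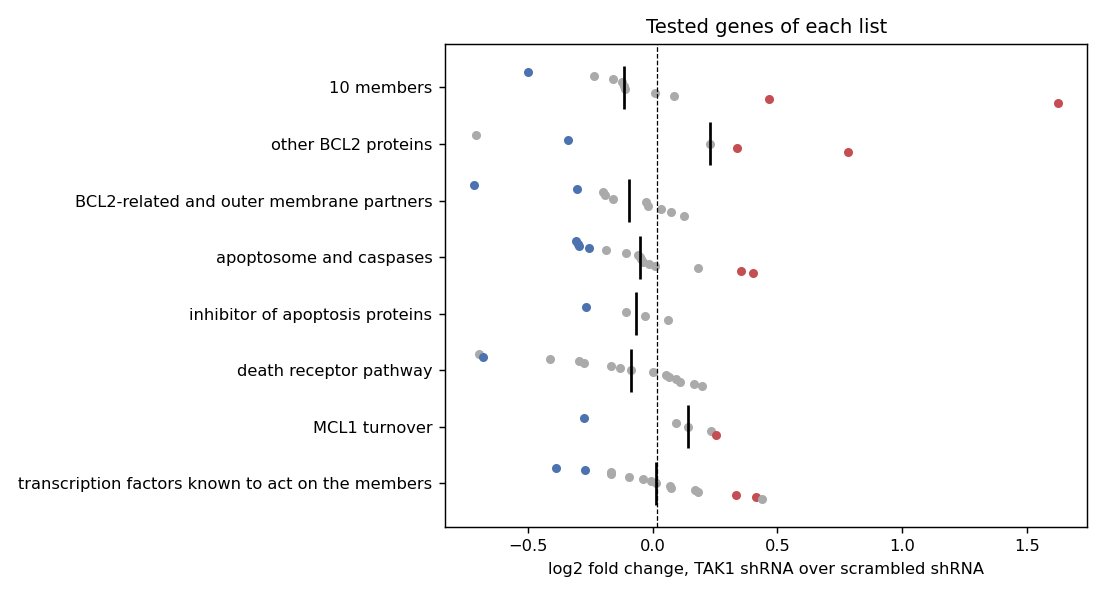
Log2 fold change of TAK1 shRNA over scrambled shRNA for the tested genes of the 10 members and of 7 lists around them, 1 point per gene, with red for called higher, blue for called lower and grey for not called. Black bars are list medians and the dashed line is the median of all genes tested, 0.02. The medians lie between -0.11 for the members and 0.23 for the other BCL2 proteins.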

How the data were processed

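RNA from RD cells was sequenced by the authors, who removed adaptor and low-quality reads; the submitters' processing notes name CASAVA, STAR and GRCh38. The deposited values are raw counts of reads per gene symbol, without normalization. The counting program, annotation release and strand use are not given in the sources used here. Groups came from the sample labels.

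Counts were analysed with edgeR 4.0.16 in R 4.3.3, with its default filter on low counts, the trimmed mean of M-values, the quasi-likelihood test and Benjamini-Hochberg adjustment over 15935 genes. A gene was called at adjusted p below 0.05 where its log2 fold change was 0.25 or more in size. The SE was obtained by dividing that size by the root of the F statistic. With totals from 28839898 to 34469323 counts, the common biological coefficient of variation was 5.67%. An exact permutation test of 3 against 3 cannot go below 0.1 (two-sided) and was not used for calls.

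Gene positions and lengths came from GENCODE 44 on GRCh38, and promoters from RefSeq. The scripts used Python 3.11.15 and pandas 2.3.3. DESeq2 1.42.0, limma 3.58.1 (voom), other normalizations, filters and fold thresholds, a replicate block and leaving out each library were alternatives. All members and MAP3K7 were named, with every called gene of the lists and, for markers, the most abundant gene and those at 0. The members and lists were chosen with earlier results of these data known. BAD, HRK, MYF6, ACTA1, MIR4435-2HG and ABALON were named after their values were seen. MARCH5 was not matched by symbol and was not analysed here, and some genes of the lists are counted but not reported by name. Rows with a repeated name were kept apart. The fits were tested on simulated data.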

Additional observations from a re-analysis of the deposited data

How the results depend on the processing

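PMAIP1 stayed lower and BCL2L11 higher, each past both thresholds, in all 14 alternatives of normalization, test, filter, block and left-out library, at log2 fold changes of -0.55 to -0.45 and 0.44 to 0.51. MAP3K7 stayed lower in the same 14, between -1.36 and -1.25. With a fold threshold of 0.5, 735 genes were higher and 680 lower, and of the members 1 was higher (BIK) and 0 were lower. Without a fold threshold 2734 genes were lower, and the members called lower became 3, with MCL1 and BAX beside PMAIP1. The members called higher numbered 1 with DESeq2, which gave BIK no adjusted p, and 1 with at least 10 counts in every library, where BIK was not tested. Leaving out each library gave 1 to 2 members higher. Scaling by library size alone gave 2376 genes higher and 1404 lower, so 62.9% of calls were upward against 51.0% in the main result; the cause was not tested. That scaling moved the median of all genes by 0.05.

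Same-numbered libraries deviated together only weakly, with correlations of 0.04, 0.04 and 0.02, so the numbers were not taken as pairs. With a replicate block 1942 genes were higher and 1848 lower, with 2 members higher and 1 lower, and MAP3K7 at -1.30. Not every library correlated best with its own number, since scrambled shRNA replicate 3 did so with TAK1 shRNA replicate 2 (0.0190).

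The same alternatives were run, after the data were seen, for the called genes of the lists. Without a change of direction, the calls of CYCS, BIRC6, BTRC, HIF1A, CASP2, BOK, MYOG, MYH8 and FBXW7 were lost in at least 1 of them, in CYCS in 5, in MYH8 in 5 and in BIRC6 in 4. At these depths BIK, with 2 to 28 counts per library, is limited by counting error.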

Other observations

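Transcription factors known to act on the members were mixed. Of 16 genes 15 were tested, 2 rose and 2 fell, and the median log2 fold change was 0.01. FOXO3, a forkhead factor known to activate BCL2L11, was at 57.4, 54.5 and 53.8 CPM with scrambled shRNA and 75.3, 65.3 and 80.6 CPM with TAK1 shRNA. The groups did not overlap, and edgeR gave 0.42 ± 0.066 (adjusted p = 2.19e-05). MYC, which sensitizes cells to apoptosis, rose from a mean of 227 to 285 CPM (0.33 ± 0.044, adjusted p = 1.66e-06). NFKB1, a subunit of NF-kB, fell from 102 to 78.3 CPM (-0.39 ± 0.051, adjusted p = 1.43e-06), and HIF1A from 122 to 101 CPM (-0.27 ± 0.049, adjusted p = 0.000119). Without scrambled shRNA replicate 3, HIF1A was at -0.24, under the fold threshold.

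By size of change, PMAIP1 exceeded 84.4% of all tested genes and BCL2L11 82.6%, whereas BBC3 exceeded 2.79%. By mean level in CPM, MCL1 was above 95.7% of tested genes and BCL2 above 30.3%.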
